A study of Homo sapiens with 23 samples.

Results

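The 29 genes described here code for enzymes that build cholesterol and fatty acids, for the factors that control those enzymes and for one sterol carrier. They were taken as a list of symbols, and all 29 were found among the 36084 genes for which estimated read counts could be summed. By role they were 8 genes of the steps from acetyl-CoA to squalene (ACAT2, HMGCS1, MVK, PMVK, MVD, IDI1, FDPS and FDFT1), 10 genes of the steps from squalene to cholesterol (SQLE, LSS, CYP51A1, TM7SF2, MSMO1, NSDHL, HSD17B7, EBP, SC5D and DHCR7), 3 regulators (SREBF1, SREBF2 and INSIG1), the sterol transport gene STARD4, and 7 genes of fatty acid synthesis and desaturation (ACLY, ACACA, FASN, SCD, ELOVL6, FADS1 and FADS2).

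Cholesterol is assembled from acetyl-CoA through mevalonate, farnesyl diphosphate and squalene, which is closed into a ring and then trimmed into the sterol. When sterol runs low in the endoplasmic reticulum, the membrane-bound products of SREBF1 and SREBF2 are cut loose and enter the nucleus, where they bind sterol response elements next to binding sites for NF-Y and SP factors. The SREBF2 product acts mainly on sterol genes and the SREBF1 products act more on fatty acid genes, whereas INSIG1, itself a target, holds both back while sterol is plentiful. Growing cells of any kind need this supply for membranes.

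The cells were NCCITs, a human embryonal carcinoma line with properties of pluripotent stem cells. They carried a dCas9-KRAB cassette under a tetracycline-inducible promoter, together with 2 constitutively expressed sgRNAs against SVA retrotransposons, all inserted with piggyBac. The paper states that these sgRNAs also target elements of the LTR5Hs family, which has the targeted sequence in common with SVAs. Stable clones were picked after the cassette went in, and the resulting line is called SCi-NCCIT. Cells without doxycycline thus held the same cassette and sgRNAs as cells given doxycycline at 2 µg/mL over 72 hours. RNA was measured in 3 libraries of each condition, YY1 in 2 of each and OCT4 in 1 of each, and H3K9me3 in 2 of each plus 1 library of NCCITs without the cassette. No library came from cells that had doxycycline but not the cassette or the sgRNAs, so the effect of the drug and that of dCas9-KRAB cannot be told apart. The labels do not say whether replicates were separate cultures, so p-values measure the spread between these libraries.

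Promoters with a sterol response element, read as TCACNCCAC on either strand, are shown first, since the products of SREBF1 and SREBF2 bind this element. Each window held 300 bases, from 270 bases before to the 30th base of the leading transcript, which was the transcript of the gene with the highest mean TPM, the level that kallisto gives per transcript length and library size. Of the members with the element, HMGCS1 (chr5:43313585-43313884, minus strand) and SREBF2 (chr22:42228839-42229138, plus strand) are shown, both on GRCh37 and printed 5′ to 3′ along the gene. Capitals mark the sterol response element or its core CACNCCAC, the NF-Y box CCAAT and, where present, the YY1 letters AANATGGC, on either strand.
HMGCS1: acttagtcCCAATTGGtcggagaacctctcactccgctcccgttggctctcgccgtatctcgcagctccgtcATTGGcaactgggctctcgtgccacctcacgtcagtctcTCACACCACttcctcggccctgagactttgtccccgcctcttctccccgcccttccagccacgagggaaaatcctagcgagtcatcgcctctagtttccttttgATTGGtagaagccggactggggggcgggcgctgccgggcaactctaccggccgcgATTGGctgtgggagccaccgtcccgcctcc
SREBF2: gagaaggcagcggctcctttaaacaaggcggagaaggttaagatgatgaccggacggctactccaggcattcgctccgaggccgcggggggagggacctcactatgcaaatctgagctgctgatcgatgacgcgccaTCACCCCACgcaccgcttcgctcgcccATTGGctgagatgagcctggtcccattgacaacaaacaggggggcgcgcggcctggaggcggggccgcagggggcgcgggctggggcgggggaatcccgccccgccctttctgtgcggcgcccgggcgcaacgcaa

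The element began 159 bases before the start site in HMGCS1 and 133 bases before it in SREBF2. It was present in 3 of 29 member windows (10.3%) and in 1.17% of the 16370 windows of all genes tested. The shorter core CACNCCAC, which every full element contains, was present in 7 member windows (24.1%) and in 5.63% of all. None of these 7 members was called higher with doxycycline in the comparison below, and a part of the element in the RNA changes was not tested. CCAAT was found in 22 member windows (75.9%) and in 36.1% of all, with up to 6 matches in NSDHL. The GC box GGGCGG was in all 29 member windows and in 63.98% of all, and the median GC content was 69.0% in the members and 63.7% over all genes, and the part of base composition in these shares was not tested. CACGTG, the E-box, was in 2 member windows and in 9.07% of all. These are counts of letters and not of bound sites.

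The windows of TM7SF2 (chr11:64879074-64879373, plus strand), MVD (chr16:88729470-88729769, minus strand) and EBP (chrX:48379926-48380225, plus strand) are shown because these 3, with FDPS, were the genes called higher with doxycycline in each of the 13 fits made. Each of the 3 held CCAAT, and EBP was the only one of the 29 members with the YY1 letters in the window.
TM7SF2: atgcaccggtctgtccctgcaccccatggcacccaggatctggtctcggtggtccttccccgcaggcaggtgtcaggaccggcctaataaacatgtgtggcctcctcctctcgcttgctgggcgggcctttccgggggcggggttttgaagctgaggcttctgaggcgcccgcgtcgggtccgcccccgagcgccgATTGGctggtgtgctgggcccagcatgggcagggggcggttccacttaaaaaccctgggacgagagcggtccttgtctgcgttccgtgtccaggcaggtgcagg
MVD: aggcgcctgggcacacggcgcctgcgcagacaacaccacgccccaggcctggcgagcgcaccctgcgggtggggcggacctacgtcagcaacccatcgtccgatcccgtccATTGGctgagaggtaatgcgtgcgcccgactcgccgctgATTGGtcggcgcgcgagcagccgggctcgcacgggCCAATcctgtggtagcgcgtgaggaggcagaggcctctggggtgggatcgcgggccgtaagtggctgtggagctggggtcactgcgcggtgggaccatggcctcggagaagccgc
EBP: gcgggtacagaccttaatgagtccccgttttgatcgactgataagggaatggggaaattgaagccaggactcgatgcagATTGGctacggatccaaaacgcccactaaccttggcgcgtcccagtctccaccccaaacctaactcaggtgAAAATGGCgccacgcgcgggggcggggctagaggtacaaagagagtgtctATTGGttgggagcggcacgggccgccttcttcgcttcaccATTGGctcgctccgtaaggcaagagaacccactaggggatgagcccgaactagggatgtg

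In untreated cells all 29 genes were expressed. In TPM, which corrects for transcript length and so allows genes to be compared, the means without doxycycline ran from 19.6 ± 4.19 (SD, n = 3) for HSD17B7 to 598 ± 96.3 for SCD, with a median of 80.3 over the members and 11.2 over the genes tested. SCD, the desaturase that makes oleate, was followed by FASN, the fatty acid synthase, at 412 ± 38.5 TPM, and by FDPS, which makes farnesyl diphosphate, at 315 ± 22.2 TPM. HMGCS1, the cytosolic HMG-CoA synthase, came next at 290 ± 51.7 TPM. FDPS and HMGCS1 differed by less than the spread between replicates, whereas the SDs of SCD and FASN did not reach each other. At the low end HSD17B7, ACACA (25.1 ± 3.35 TPM), STARD4 (25.3 ± 3.27 TPM), MVK (27.3 ± 0.749 TPM) and TM7SF2 (27.3 ± 0.644 TPM) lay close together.

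Counts were then compared between the conditions, on 14.7, 31.9 and 43.4 M counts for replicates 1 to 3 without doxycycline and 44.7, 47.9 and 46.6 M with it. Of 16370 genes that passed the filter on low counts, 2858 (17.5%) were called by edgeR at an adjusted p below 0.05, 1469 higher (8.97%) and 1389 lower (8.49%). Replicate 1 without doxycycline had the fewest counts and stood apart from the others on the second principal component, which held 24.2% of the variance. The 10 pluripotency genes summed to 1703 to 1881 TPM without and 1311 to 1465 TPM with doxycycline. Of these, 5 were called lower, beside 8.49% of all genes tested, and none higher. The 5 were TDGF1 (log2 fold change -1.13), L1TD1 (-0.62), DNMT3B (-0.60), NANOG (-0.57) and SALL4 (-0.22). The 11 markers of differentiated cells summed to between 6.89 and 11.0 TPM in every library, 2 of them (GATA6 and MIXL1) were called higher, and 6 of them, among them SOX17, TBXT and ALB, were too low to test. The 6 markers of fat and steroid-producing cells summed to 7.64 to 7.996 TPM without and 3.67 to 4.15 TPM with doxycycline, and the defining genes ADIPOQ, FABP4 and CYP17A1 were too low to test. Of the 6, STAR, the mitochondrial cholesterol carrier of steroid-producing cells, was called lower (log2 fold change -1.39). Whether the lower pluripotency genes or the lower STAR have a part in the results below was not tested.

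All 29 members passed the filter. Of these, 7 were called higher (24.1%, against 8.97% of all genes tested) and 1 lower (3.45%, against 8.49%). Among the 7969 genes with a mean level at least that of the lowest member, HSD17B7, 11.4% were called higher, a limit chosen after the values were seen. The groups did not overlap, with all doxycycline libraries above all others, for 11 members (37.9%, against 19.2% of all genes), and lay the other way round for 1 (3.45%, against 17.8%). The median log2 fold change of the members was 0.13, beside -0.0025 over all genes tested, and 22 of 29 lay above 0, beside 49.6% of all genes. These shares describe the list, which was chosen with earlier results of these data known, and no test of the list was made. In bulk RNA, a lower level in each cell and a smaller share of cells with the transcript cannot be told apart.

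**Figure D1:**
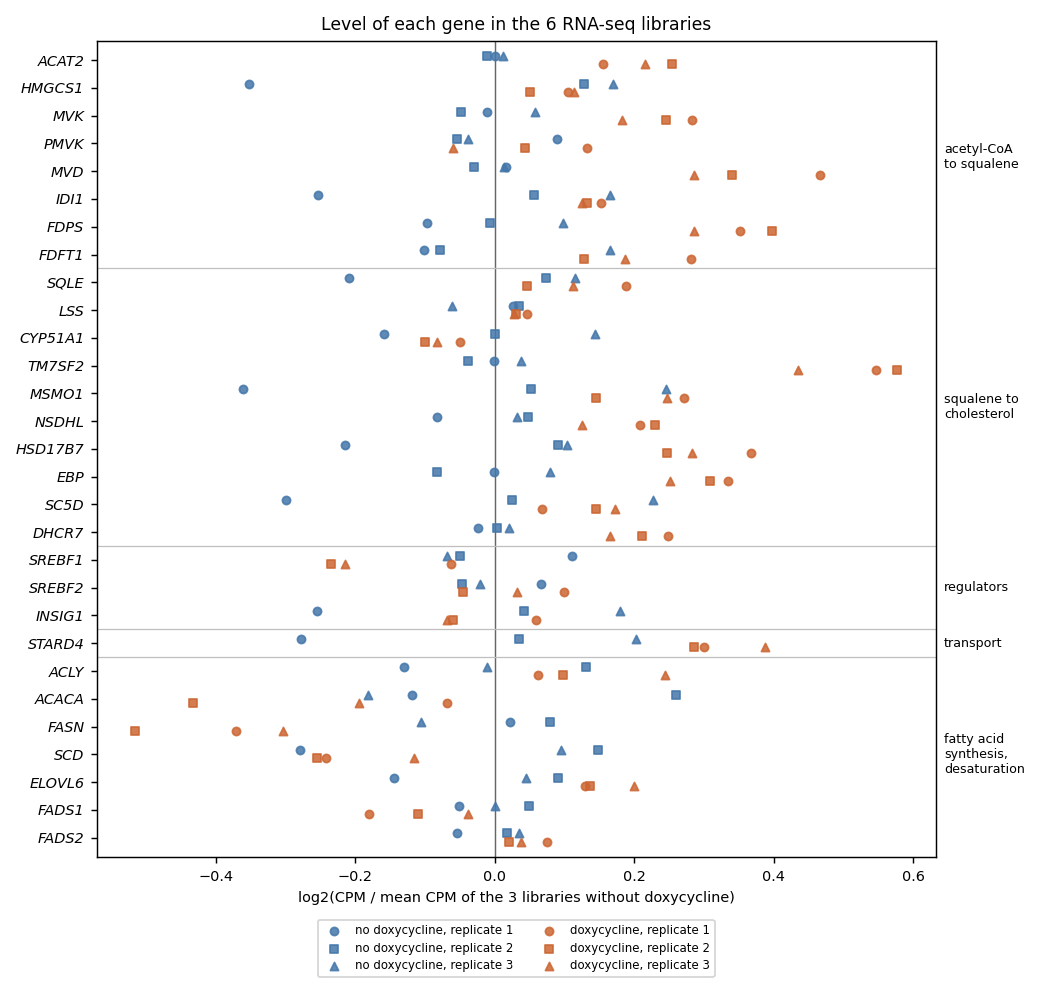
Level of the 29 genes in each of the 6 RNA-seq libraries, as log2 of CPM (counts scaled by library size) over the mean of the 3 libraries without doxycycline, with a point for each library. The doxycycline libraries of 7 called genes, TM7SF2 among them, lie to the right of all others and those of FASN to the left, and replicate 1 without doxycycline (blue circle) is the lowest untreated library for 18 genes.

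Along the steps from acetyl-CoA to squalene, all 8 genes had a log2 fold change above 0, with a median of 0.20, and 4 of them rose: ACAT2, MVK, MVD and FDPS. MVD, the decarboxylase that yields isopentenyl diphosphate (chr16:88718343-88729569, minus strand), measured 75.3, 72.9 and 75.1 CPM without doxycycline and 102.8, 94.2 and 90.7 CPM with it. The untreated libraries lay within 3 CPM of each other and every treated library was above them. The log2 fold change was 0.37 ± 0.060 (SE), a 1.29-fold rise (edgeR adjusted p = 0.00382).
FDPS (chr1:155278539-155290457, plus strand) measured 226.5, 241 and 259 CPM without and 309, 319 and 295 CPM with doxycycline. The lowest treated library was above the highest untreated one, and the gene rose by 0.34 ± 0.063 on the log2 scale (edgeR adjusted p = 0.0064).

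MVK, the mevalonate kinase (chr12:110011060-110035930, plus strand), went from 29.7, 28.95 and 31.1 CPM to 36.4, 35.5 and 34.0 CPM, a log2 fold change of 0.24 ± 0.061 (edgeR adjusted p = 0.0282). ACAT2, the thiolase that opens the pathway (chr6:160183077-160200144, plus strand), went from 195.4, 193.9 and 197.0 CPM to 217.5, 233 and 227 CPM, a log2 fold change of 0.21 ± 0.051 (edgeR adjusted p = 0.022). The groups did not overlap for either gene. Both calls were less stable than those of MVD and FDPS: with 1 library left out, MVD and FDPS were called 6 times in 6, and MVK and ACAT2 in 2 of 6. MVK also lost its call with counts scaled for transcript length (adjusted p = 0.110). MVK also overlaps MMAB, and ACAT2 overlaps SOD2 and TCP1, on the opposite strand, and whether strand was used in the quantification is not given in the sources used here.

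The other 4 genes of these steps did not pass the test. HMGCS1 had 455, 634 and 653 CPM without and 625, 601 and 628 CPM with doxycycline (log2 fold change 0.09 ± 0.117). The treated libraries fell within the range of the untreated ones, and without replicate 1 the log2 fold change was -0.06. IDI1, the isopentenyl diphosphate isomerase, behaved alike with 0.13 ± 0.092 in all libraries and 0.02 without that replicate. FDFT1, the squalene synthase, had a log2 fold change of 0.20 ± 0.079 (edgeR adjusted p = 0.119), and PMVK, the phosphomevalonate kinase, one of 0.05 ± 0.068.

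From squalene to cholesterol, 9 of 10 genes had a log2 fold change above 0, with a median of 0.20, and 3 rose: TM7SF2, EBP and DHCR7. TM7SF2, a sterol reductase that acts after the CYP51A1 step (chr11:64879317-64883856, plus strand), changed most of all members. It measured 27.2, 26.5 and 27.9 CPM without doxycycline and 39.7, 40.6 and 36.8 CPM with it, so that the groups were far apart compared with their spread. The log2 fold change was 0.52 ± 0.063, a 1.43-fold rise (edgeR adjusted p = 0.000767). It was the 1 member whose change also exceeded 0.5 on the log2 scale.

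EBP, the isomerase that moves the double bond of the sterol ring (chrX:48380187-48387104, plus strand), measured 47.6, 44.9 and 50.3 CPM without and 60.0, 58.9 and 56.6 CPM with doxycycline. The groups did not overlap, and the log2 fold change was 0.30 ± 0.059 (edgeR adjusted p = 0.00957). DHCR7, the reductase that yields cholesterol (chr11:71139239-71163914, minus strand), measured 194.6, 198 and 201 CPM without and 235, 229 and 222 CPM with doxycycline. The groups did not overlap either, with a log2 fold change of 0.21 ± 0.050 (edgeR adjusted p = 0.0213), but the call was kept in 2 of 6 fits with 1 library left out and was lost with counts scaled for transcript length (adjusted p = 0.148).

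For NSDHL and HSD17B7, which remove and reduce groups of the sterol ring, all treated libraries also lay above all untreated ones. NSDHL measured 63.5, 69.5 and 68.8 CPM without and 77.7, 78.9 and 73.4 CPM with doxycycline (log2 fold change 0.19 ± 0.057, edgeR adjusted p = 0.0546). HSD17B7 measured 16.5, 20.4 and 20.6 CPM without and 24.7, 22.7 and 23.3 CPM with doxycycline (log2 fold change 0.28 ± 0.089, edgeR adjusted p = 0.0559). Both missed the threshold narrowly and passed it with DESeq2, at adjusted p of 0.0438 and 0.0379. MSMO1, the methylsterol oxidase, had a log2 fold change of 0.22 ± 0.126, SC5D, a sterol desaturase, one of 0.12 ± 0.111, and SQLE, the squalene epoxidase, one of 0.11 ± 0.084. LSS, which closes the ring, had 0.03 ± 0.051, and CYP51A1, the lanosterol demethylase, was the exception at -0.08 ± 0.074.

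None of the 3 regulators was called. SREBF2 measured 489, 452 and 460 CPM without and 501, 453 and 478 CPM with doxycycline, and the ranges overlapped (log2 fold change 0.03 ± 0.058, edgeR adjusted p = 0.759). SREBF1 measured 195.0, 174.4 and 172.2 CPM without and 172.9, 153.4 and 155.6 CPM with doxycycline (log2 fold change -0.17 ± 0.070, edgeR adjusted p = 0.133). The highest treated library of SREBF1 fell just above the lowest untreated one. INSIG1 measured 108.2, 132.9 and 146 CPM without and 134.5, 123.8 and 123.2 CPM with doxycycline (log2 fold change -0.03 ± 0.098, edgeR adjusted p = 0.872), with replicate 1 the lowest of all 6 libraries.
STARD4, which carries sterol between membranes, measured 49.97, 62.1 and 69.7 CPM without and 74.6, 73.9 and 79.2 CPM with doxycycline. The groups did not overlap, the log2 fold change was 0.31 ± 0.102, and the edgeR adjusted p was 0.0636 (DESeq2 0.0154).

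The fatty acid genes did not move together. FASN (chr17:80036214-80056170, minus strand) measured 2118, 2205 and 1939 CPM without doxycycline and 1615, 1460 and 1691 CPM with it. Every treated library was below every untreated one, and the gene fell by 0.39 ± 0.071 on the log2 scale (edgeR adjusted p = 0.00596), in 6 of 6 fits with 1 library left out. With counts scaled for transcript length the log2 fold change was -0.23 and the call was lost (adjusted p = 0.0804).
SCD measured 1926, 2589 and 2494 CPM without and 1976, 1958 and 2155 CPM with doxycycline. The low untreated library was again replicate 1, so the groups overlapped (log2 fold change -0.20 ± 0.102, edgeR adjusted p = 0.203), and without it SCD was called lower (log2 fold change -0.32, edgeR adjusted p = 0.00865).

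ELOVL6, which elongates palmitate, measured 92.2, 108.6 and 105.2 CPM without and 111.5, 112.1 and 117.1 CPM with doxycycline, so that the groups did not overlap, but the test was not passed (log2 fold change 0.15 ± 0.067, edgeR adjusted p = 0.153). ACLY, which makes cytosolic acetyl-CoA, had a log2 fold change of 0.14 ± 0.077 and ACACA, the acetyl-CoA carboxylase, one of -0.23 ± 0.125. The desaturases of polyunsaturated fatty acids had -0.11 ± 0.057 (FADS1) and 0.04 ± 0.051 (FADS2), and these neighbours overlap on opposite strands. The median of the 7 fatty acid genes was -0.11, against 0.20 in each group of sterol steps, and the difference between the groups was not tested. It also depended on the counts used. With counts scaled for transcript length, ACACA had 0.03, which was the middle value of the 7, while FASN, FADS1 and SCD stayed below 0.

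**Figure D2:**
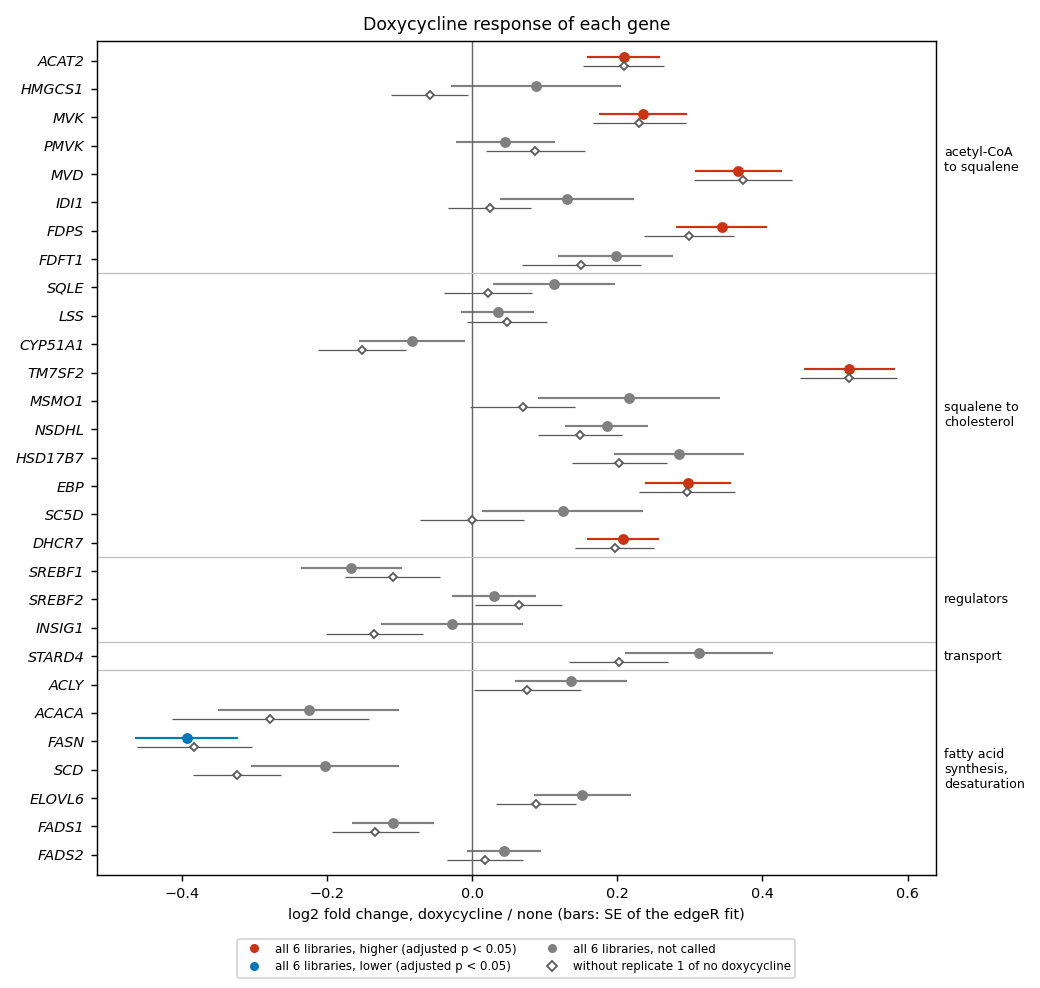
Log2 fold change of the 29 genes with doxycycline from edgeR, with bars of 1 SE, over all 6 libraries (filled circles, coloured where adjusted p was below 0.05) and without replicate 1 of the cells without doxycycline (open diamonds). TM7SF2, MVD, EBP and FDPS stay between 0.30 and 0.52, whereas IDI1, MSMO1 and SC5D move to values near 0 and HMGCS1 goes from 0.09 to -0.06.

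Replicate 1 without doxycycline had the lowest level of the 3 untreated libraries for 18 of 29 members (62.1%), beside 39.6% of all genes tested. Its CPM relative to the mean of the other 2 untreated libraries was -0.51 on the log2 scale for MSMO1, -0.50 for HMGCS1, -0.43 for SC5D, -0.40 for SCD, -0.40 for STARD4, -0.37 for INSIG1 and -0.37 for IDI1. For the called genes TM7SF2, EBP, ACAT2, MVK, MVD, DHCR7 and FASN it lay between -0.04 and 0.03, and for FDPS it was -0.14. Members thus differed in how far this library pulled them, and the 8 called genes were called in the fit without it too. In that fit 7 members were called higher and 2 lower, and 20 of 29 log2 fold changes were above 0. The coefficient of variation of the members' CPM had a median of 6.94% without and 4.29% with doxycycline, beside 5.62% and 4.77% for genes of at least the lowest member's level.

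The share of a gene's TPM held by its leading transcript was compared as a description, with no test. It did not overlap between the conditions for 8 of the 27 members with more than 1 transcript, being higher with doxycycline in 3 and lower in 5. Over the 7622 genes of at least the lowest member's level with more than 1 transcript, the shares were 8.74% higher and 7.18% lower. FASN-201 held 80.4, 76.3 and 78.7% of the FASN TPM without doxycycline and 67.7, 68.4 and 71.6% with it, while its own level went from 323 ± 24.6 to 237 ± 24.0 TPM. FASN-202, a transcript with a retained intron, went from 11.8 ± 1.36 to 21.3 ± 5.45 TPM. SREBF1-201 held 32.2, 31.2 and 29.4% of the SREBF1 TPM without and 22.2, 22.4 and 24.7% with doxycycline, and went from 32.2 ± 1.80 to 22.6 ± 1.63 TPM. SREBF1-204, annotated as a target of nonsense-mediated decay, measured 4.35 ± 0.791 TPM without and 9.14 ± 2.00 TPM with doxycycline. The leading transcript of ACACA went from a mean share of 54.6% to 40.9%, and that of DHCR7 from 77.8% to 82.7%. Shares among transcripts of 1 gene rest on kallisto's division of shared reads.

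**Figure D3:**
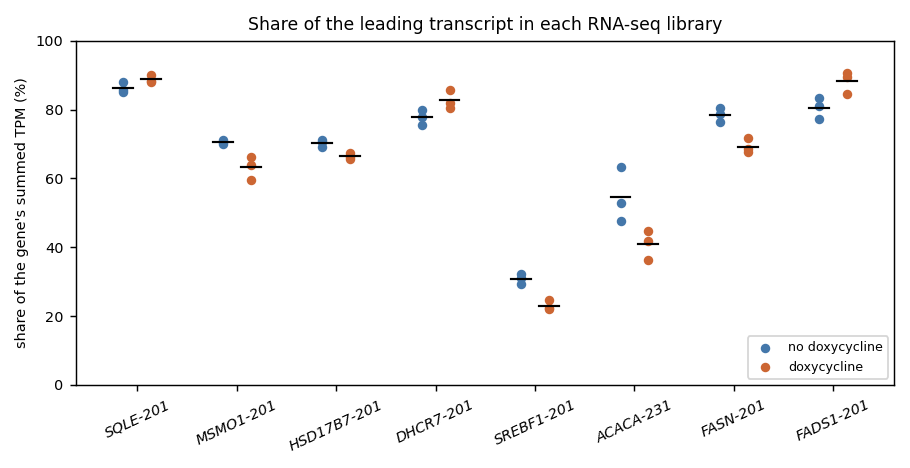
Share of the leading transcript in its gene's summed TPM, in percent, for the 8 members in which the conditions did not overlap; points are libraries and black lines are means of 3. FASN-201, SREBF1-201, ACACA-231, MSMO1-201 and HSD17B7-201 are lower with doxycycline, and SQLE-201, DHCR7-201 and FADS1-201 are higher.

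Other genes of the pathways were taken from a list of 47, all of which passed the filter. Of these, 5 were called higher and 4 lower, a share near that over all genes tested (17.5% called, 8.97% higher and 8.49% lower), and the median log2 fold change was -0.05. Of the 6 genes that process the SREBF products, among them SCAP (-0.05 ± 0.053) and MBTPS2 (-0.27 ± 0.090, edgeR adjusted p = 0.0671), none was called. In the LXR arm, which answers to excess sterol, the receptor gene NR1H3 rose by 0.30 ± 0.067 (edgeR adjusted p = 0.0159). The LXR targets listed did not pass the test. ABCA1 had -0.05 ± 0.078, MYLIP had -0.15 ± 0.054 (edgeR adjusted p = 0.0925), and ABCG1, at a level below 1 CPM, had -0.98 ± 0.377 (edgeR adjusted p = 0.107). For MYLIP and ABCG1 all treated libraries lay below all untreated ones, as for 17.8% of all genes tested. Of 7 genes listed under sterol storage and transport, 3 fell, beside 8.49% of all genes tested: SOAT1, which esterifies cholesterol for storage (-0.32 ± 0.063, edgeR adjusted p = 0.00948), LBR (-0.30 ± 0.056, edgeR adjusted p = 0.00637) and NPC1, which exports cholesterol from lysosomes (-0.25 ± 0.067, edgeR adjusted p = 0.0315). LBR is a protein of the inner nuclear membrane that shares its sterol reductase activity with TM7SF2. The count of 3 thus includes a gene that by its role is not one of storage or transport. LBR went from 117 ± 6.17 to 94.9 ± 1.52 CPM as TM7SF2 went from 27.2 ± 0.724 to 39.0 ± 2.01 CPM.

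Among 21 genes of fatty acid supply and elongation, 4 rose and none fell, beside 8.97% and 8.49% of all genes tested. SLC25A1, the carrier that brings citrate out of mitochondria for ACLY, went from 167 ± 15.2 to 212 ± 9.49 CPM (0.35 ± 0.072, edgeR adjusted p = 0.0119). ACSL1, an acyl-CoA synthetase, rose by 0.41 ± 0.113 at a low level, from 4.36 ± 0.375 to 5.73 ± 0.430 CPM (edgeR adjusted p = 0.0364, DESeq2 0.0728). ELOVL1 and TECR, which act in the elongation of long fatty acids, both rose by 0.24 on the log2 scale (edgeR adjusted p = 0.0279 and 0.023). With 1 library left out, SLC25A1, SOAT1 and LBR kept their call in 6 of 6 fits, TECR in 3, NR1H3, NPC1 and ELOVL1 in 2 each and ACSL1 in 1.

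YY1, a zinc finger factor that binds many promoters of active genes, was then examined at the start sites. A promoter was taken as 1 kb on either side of the leading start site, and it carried YY1 where a deposited peak shared at least 1 bp with it. Without doxycycline 29 and 26 of the 29 member promoters carried a peak in replicates 1 and 2, and with doxycycline 28 and 28 did. The mean was 27.5 ± 2.12 (SD, n = 2) without and 28.0 ± 0 with doxycycline (exact permutation test, two-sided, p = 1; the smallest p that 2 against 2 libraries allow is 0.33). Both libraries carried a peak at 26 members without doxycycline (89.7%, against 55.8% of all genes tested) and at 28 with it (96.6%, against 63.3%). All 4 libraries did so at 26 members, against 54.5% of all genes tested and 75.7% of the genes of at least the lowest member's level. No member had lost its peak in both doxycycline libraries, and none had gained one, by the count that needs both libraries of each condition. Over all 16370 genes tested, 19 had lost and 332 had gained a peak by this count, so few changes were seen at any promoters. The doxycycline libraries held more peaks, 82005 and 115673 against 56370 and 76098 without. With the same number of peaks taken from each library, 195 of all genes had lost and 52 had gained a peak. Both libraries then carried a peak at 25 members without and 26 with doxycycline. The 3 members short of 4 peaks were FDFT1, with a peak only in replicate 1 without doxycycline, and NSDHL and ELOVL6, which lacked one in replicate 2 without doxycycline.

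The peaks differed more between members than between conditions. Fold enrichment of the strongest peak over the local background, as given by the peak caller, had a median over members of 9.31 and 7.89 without doxycycline and 9.87 and 9.59 with it, beside 7.98 and 8.34, and 8.47 and 9.03, over all promoters with a peak. SREBF2 stood above the other members in every library, with 51.5 and 43.99 without and 64.6 and 45.6 with doxycycline. In these libraries between 505 and 1422 promoters of all genes had a higher value. FADS2 was next, with 23.7 and 28.2 without and 38.1 and 33.5 with doxycycline. The remaining members with a peak in all 4 libraries lay between 3.82 and 17.8.

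For the 26 members with a peak in every library, the log2 ratio of the mean fold enrichment with doxycycline to that without had a median of 0.26, and over the 8922 promoters of all genes it was also 0.26. It ran from -0.39 for MSMO1 to 0.64 for IDI1. The values of both doxycycline libraries were above both others for 10 members (beside 39.6% of all such promoters) and below them for MSMO1 (beside 3.35%), whose values were 14.4 and 13.8 without and 10.6 and 11.0 with doxycycline. MSMO1 is named here because it was the 1 member below, and its RNA did not pass the test. The 7 genes whose RNA rose had a median log2 ratio of 0.19, with a range of -0.10 to 0.39, and the other 19 had 0.32. Fold enrichment depends on the depth of each library, which the peak lists do not give.

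The summits of these peaks lay at a median distance of 250 bp from the leading start site. Of the 26 members with 4 peaks, all summits were upstream in 10 and downstream in 8. In SREBF2 they fell 15 to 41 bp downstream, in FASN 34 to 56 bp upstream, and in MVD from 47 bp upstream to 48 bp downstream, and these were the 3 members with every summit within 100 bp. Several positions were repeated closely across libraries at a distance from the start, as in FADS2 (650 to 677 bp downstream), HMGCS1 (649 to 670 bp upstream) and INSIG1 (518 to 564 bp upstream). In IDI1, SREBF1 and ACLY the summits were spread over more than 400 bp.

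The letters AANATGGC, a part of the YY1 motif, were sought within 50 bp of the summit in replicate 1 without doxycycline, where all 29 members had a peak. They were found at 4 members (13.8%) and at 21.0% of the 10418 promoters with a peak in that library. The 4 windows of 30 bases are shown because they hold all the matches found in the list, on the plus strand of GRCh37, with the match in capitals. They lie at chr22:42229127-42229156 (SREBF2), chr11:61596430-61596459 (FADS2), chr1:155279316-155279345 (FDPS, where the match is on the minus strand) and chrX:48380065-48380094 (EBP).
SREBF2 summit: ggcgcaacgcaAACATGGCggcgggtggca
FADS2 summit: ccccagcggggAAGATGGCcgcccctgcgc
FDPS summit: gccttgtgcacGCCATCTTgaaggcactga
EBP summit: taactcaggtgAAAATGGCgccacgcgcgg
The centre of the match was 0.5 bp from the summit in SREBF2 and in FADS2, 6.5 bp from it in FDPS and 11.5 bp from it in EBP. The RNA of FDPS and EBP was called higher with doxycycline and that of SREBF2 and FADS2 was not called. A link between these letters and the RNA changes was not tested.

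OCT4, the product of POU5F1, had a peak at 15 of 29 member promoters without doxycycline (51.7%, against 38.9% of all genes tested) and at none with it (against 4.56%). Each condition had 1 OCT4 library, and the one with doxycycline held 23352 peaks against 50775, so no replicate error was available and the fall was seen over all promoters. RNA of POU5F1 did not pass the test (log2 fold change -0.12 ± 0.123, edgeR adjusted p = 0.527). Of the 7 members whose RNA rose, ACAT2, MVK, TM7SF2 and DHCR7 had an OCT4 peak without doxycycline, and so did FASN. H3K9me3, the repressive mark that dCas9-KRAB lays down, had a peak at 2 member promoters in at least 1 of 5 libraries (6.9%, against 7.31% of all genes tested). These were SCD and HMGCS1, each in 1 library without doxycycline, and the HMGCS1 peak reached only the edge of the window, with its summit outside it. No member promoter had an H3K9me3 peak in a doxycycline library, beside 4.45% and 4.05% of all genes tested in replicates 1 and 2.

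Reads shared with copies elsewhere were not counted, and of such copies only annotated pseudogenes named after members were looked at. Their 18 entries, of which 8 belong to FDPS, were given at most 0.2 TPM by kallisto in any library. On the same strand TM7SF2 overlaps VPS51, EBP overlaps the coding gene ENSG00000286268, FADS2 overlaps FEN1, and CYP51A1 overlaps the coding genes ENSG00000285772 and ENSG00000289027, so counts there may be split between the genes. For CYP51A1, SREBF1 and ACACA, as for MVK, ACAT2 and the FADS genes, a coding gene on the opposite strand overlaps the locus, and the start sites of MVK, ACAT2, IDI1, NSDHL, EBP and FADS1 lie within 1 kb of the start of another coding gene, so a YY1 peak there cannot be given to the member alone.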

How the data were processed

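RNA-seq, ChIP-seq and HiChIP of NCCIT cells were grouped by the labels, with the dose and time of doxycycline from the study's methods. The RNA-seq files of poly(A) RNA hold, for each transcript, the estimated count and the TPM that kallisto gave the authors, and no scaling between libraries was applied. For ChIP-seq, the authors aligned to hg19 with BWA, filtered on mapping quality, removed duplicates and called peaks in each library, and the deposited lists give fold enrichment as a ratio and p- and q-values as −log10. The peak lists give no depth, so their precision is unknown. The HiChIP table was not used, because its 12 columns of contacts per sample and 4 of coverage carry names that no label ties to a condition.

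Counts of a gene's transcripts (GENCODE release 44, mapped to GRCh37) were added up and rounded. The quasi-likelihood test of edgeR 4.0.16 (R 4.3.3) followed filterByExpr and TMM scaling, and p-values were adjusted over all genes by Benjamini-Hochberg with a threshold of 0.05. The edgeR test and the peak overlap were tested on simulated data. The SE of a log2 fold change was derived as its absolute value over the square root of the F statistic of this test. CPM used TMM-scaled library sizes. DESeq2 1.42.0 was an alternative, run without the filter. The others were DESeq2's size factors, no filter, at least 10 counts in every library, a replicate block, length-scaled counts, a log2 limit of 0.5 and leaving out each library. For YY1 they were windows of 500 bp and 2 kb, any annotated start site, a −log10 q of at least 5, equal peak numbers and leaving out each library. Peaks and motifs were handled in Python 3.11.15 (pandas 2.3.3, numpy 2.4.6, scipy 1.17.1, and matplotlib 3.10.9 for plots).

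The members, the related genes and the marker lists were chosen with earlier results of these data known. All members were accounted for, with values per library for those called, without overlap, or regulators. Related genes were named where called, up to 5 each way. One called related gene and one promoter sequence are not reported here.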

Additional observations from a re-analysis of the deposited data

How the results depend on the processing

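The counts of members called moved by over 1.5 times in these cases. With a further limit of 0.5 on the absolute log2 fold change, 1 member was higher, 0 were lower and 0 related genes were called. With length-scaled counts, 0 members were lower and 4 related genes were called, beside 1 and 9. With the replicate block, 2 members were lower (SREBF1 joined FASN) and 14 related genes were called; the deviations of same-numbered libraries from their group means had correlations of 0.13, 0.08 and -0.0009, so the numbers were not taken to pair the samples. Leaving out 1 RNA library gave 4 to 7 members higher, 1 to 2 lower and 3 to 11 related genes. The low count of 4 members came without replicate 2 of either condition, 2 lower members came without replicate 1 of the untreated cells, and the related genes numbered 3 without replicate 2 of either condition, 4 without replicate 1 with doxycycline and 5 without replicate 3 of the untreated cells. DESeq2 called 10 members higher and 1 lower. FDFT1 was called higher in 1 fit that left out a library, without replicate 3 of the untreated cells. No fit turned the direction of a called gene. Among the RNA libraries, replicate 1 of the untreated cells had the lowest depth, 14.7 M counts.

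Leaving out 1 YY1 library gave 26 to 29 members with a peak without doxycycline and 28 with it, 0 to 1 members that lost a peak and 0 to 2 that gained one. The 1 loss (FDFT1) came without replicate 2 of the untreated cells and the 2 gains (NSDHL and ELOVL6) without replicate 1. The other windows and limits gave 23 to 28 and 26 to 29 members, with 0 losses and 0 gains, beside 13 to 195 losses and 52 to 424 gains over all 16370 genes tested. The 195 losses and 52 gains came with equal peak numbers, the 1 setting in which losses outnumbered gains. With 1 YY1 library left out, 78 to 192 of all genes tested lost and 669 to 1024 gained a peak.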
